A study of Mus musculus with 4 samples.

Results

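Cadherins and protocadherins are cell surface adhesion proteins whose extracellular part is a chain of repeated domains held rigid by calcium. Classical cadherins bind their like on the neighbouring cell and hold on to the actin skeleton through catenins, and in the neuroepithelium they form the belt of junctions along the ventricular surface. Protocadherins adhere more weakly and take part in cell sorting, axon growth and synapse formation. The genes of the clustered protocadherins lie side by side, and each neuron switches on its own small set of them. The family was taken as every gene with a symbol made of Cdh and a digit, or beginning with Pcdh, that was the single gene named for an array probe set in the platform annotation. This gave 56 of the 18193 genes with such a probe set, 21 with Cdh symbols and 35 with Pcdh symbols. Each was represented by its probe set with the highest mean signal (a probe set is a collection of short oligonucleotides matched to a transcript).

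Total RNA from neuroepithelial cells, the dividing precursors of the forebrain, was measured on 4 Affymetrix arrays. The cells came from the telencephalon of ICR mouse embryos. In 1 group of 2 arrays they were taken at embryonic day 14.5 (E14.5) and cultured for 4 days, and in the other group of 2 arrays at embryonic day 11.5 (E11.5) and cultured for 1 day. All were grown on polyornithine and fibronectin in medium with N2 supplement and 10 ng/ml basic FGF, a mitogen of neural precursors. In this design embryonic age and time in culture cannot be told apart. Nothing in the labels says that replicate arrays came from separate cultures or animals, so the p-values reflect array-to-array spread alone, and that spread could be technical.

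The deposited intensities had 2% trimmed means of 154 and 103 on the E14.5 arrays and 187 and 252 on the E11.5 arrays, and each array was scaled to a common trimmed mean of 174. All signals below are scaled values, and they are not compared between genes, since each probe set has its own brightness. Log2 differences are E14.5 minus E11.5, computed after adding a constant of 12.8 to each signal. Their errors (SE, n = 2 arrays per group) and adjusted p-values come from 1 limma fit over all 27022 probe sets with a mean signal of at least 27.3. Progenitor markers were present on all arrays: the summed signal of 9 such genes was 31762 and 33291 at E14.5 and 21639 and 19941 at E11.5. Of these 9 genes 4 were higher, led by Slc1a3 (2.78) and Hes5 (1.81), and Pax6 was lower (-0.83). Markers of other cells differed between the groups as well. Those of neurons summed to 3018 and 2547 at E14.5 and 15054 and 15513 at E11.5, with 15 of 15 genes lower. Those of oligodendrocyte precursors summed to 18286 and 20205 at E14.5 and 902 and 682 at E11.5, with 7 of 7 genes higher. Astrocyte markers summed to 16810 and 12004 at E14.5 and 4700 and 4914 at E11.5, with 7 of 8 higher, and microglial markers to 1893 and 1797 at E14.5 and 268 and 349 at E11.5, with 7 of 9 tested genes higher. Meningeal markers summed to 712 and 641 at E14.5 and 1271 and 1275 at E11.5, with 3 of 7 tested genes lower. Erythroid markers summed to 35.9 and 53.2 at E14.5 and 798 and 383 at E11.5, with 2 of 2 tested genes lower. Both of these, Hbb-y and Hba-x, had E14.5 means below 27.3 (12.3 and 8.87), so they were tested because of their E11.5 signal. Endothelial markers summed to 416 and 477 at E14.5 and 473 and 390 at E11.5, and Pecam1 and Tie1 stayed below 12.8 on every array. Of 5 tested endothelial genes 2 were higher, Plvap with means of 91.2 at E14.5 and 10.0 at E11.5 and Ramp2 with 158 and 65.3. Egfl7 was lower, with 39.0 and 109. Several other called markers were likewise tested because of their signal in 1 group, and their calls are given as a description. For example, Gpr17 (2.03), Cspg4 (6.92), Aqp4 (21.3), C1qa (6.17) and Plvap had E11.5 means below 27.3. Tbr1 (23.7) and Slc32a1 (18.5) had E14.5 means below it. The part of any of these cell types in the differences below was not tested. In such mixed cultures fewer cells of a type and less RNA per cell cannot be told apart.

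Of the 56 genes, 35 had a mean signal past the filter and were tested. At E14.5, 13 were higher and 6 lower, and 16 did not pass the test at an adjusted p of 0.05. Over all 12952 genes tested, 27.8% passed in either direction, 14.3% as higher and 13.6% as lower, whereas among the 35 the shares were 54.3%, 37.1% and 17.1%. The difference was at least 2-fold for 12 of the genes that rose and 4 of those that fell. The median log2 difference of the 35 was 0.33, beside 0.03 for all genes tested. On the values as deposited, without scaling, the median of all genes was -0.69. With those values 2 family members passed as higher and 8 as lower, and none of the 19 differences changed sign. Of the 13 higher members 11 no longer passed, so those calls depend on the scaling. The arrays of the groups did not overlap for any of the 19 genes. These were chosen by a test on the same arrays, so this adds no support. Members that did not pass, such as Cdh4 and Cdh22, did not overlap either.

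**Figure D1:**
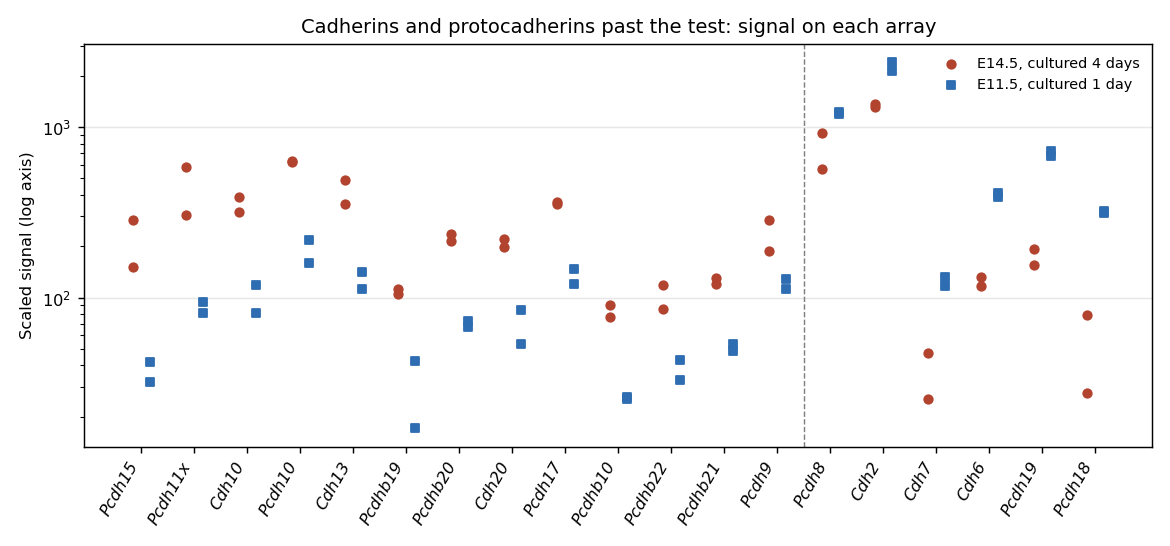
Scaled signal (log axis) on each of the 4 arrays for the 19 cadherins and protocadherins that passed the test, in order of their log2 difference, with E14.5 arrays as circles left of E11.5 arrays as squares. Left of the dashed line are the 13 genes higher at E14.5 and right of it the 6 lower genes. The genes were chosen by the test on these same arrays.

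The 5 type I classical cadherins, which carry the strongest homophilic adhesion, had 2 tested members. Cdh2, or N-cadherin, the main cadherin of neuroepithelial junctions, had signals of 1359 and 1306 at E14.5 and 2399 and 2146 at E11.5. Both E14.5 arrays lay below both E11.5 arrays, with a log2 difference of -0.76 ± 0.12 (adjusted p = 0.0016, limma), and a second Cdh2 probe set gave -1.03 ± 0.15. Cdh4, or R-cadherin, a close relative of N-cadherin, had signals of 528 and 577 at E14.5 and 686 and 712 at E11.5. Its groups did not overlap either, but the difference of -0.33 ± 0.14 did not pass the test (adjusted p = 0.11). Cdh1, the epithelial E-cadherin, had signals of 9.68 and 18.4 at E14.5 and 16.2 and 22.6 at E11.5 and lay below the filter, as did Cdh3 and Cdh15. Cdh3 is an epithelial cadherin and Cdh15 a muscle cadherin.

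Type II cadherins, whose expression marks out brain regions and neuron groups, changed in both directions. Of 7 tested members 2 rose (28.6%, beside 14.3% of all genes), 2 fell (28.6%, beside 13.6%) and 3 did not pass. Cdh10 had signals of 316 and 391 at E14.5 and 118 and 81.5 at E11.5, a log2 difference of 1.71 ± 0.21 (adjusted p = 3.3e-04). Its other tested probe sets gave 0.15 ± 0.29, with overlapping groups, and 0.78 ± 0.40. Neither passed the test, so the Cdh10 rise depends on the probe set. Cdh20 had signals of 199 and 219 at E14.5 and 53.2 and 84.1 at E11.5, a log2 difference of 1.47 ± 0.24 (adjusted p = 0.0015). At the representative probe sets the ratios of mean signals, E14.5 over E11.5, were 3.54 for Cdh10 and 3.04 for Cdh20.

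The 2 type II genes that fell did so to a similar degree. Cdh6, known in the mouse embryo as a marker of the lateral ganglionic eminence at its border with the cortex, had signals of 116 and 132 at E14.5 and 388 and 409 at E11.5. The log2 difference of Cdh6 was -1.59 ± 0.17 (adjusted p = 1.3e-04), and its second probe set gave -1.17 ± 0.20. Cdh7 had signals of 25.6 and 47.3 at E14.5 and 116 and 132 at E11.5, a log2 difference of -1.51 ± 0.29 (adjusted p = 0.0038). Its other tested probe sets were lower as well, by -2.01 ± 0.39 and -1.37 ± 0.43. Their E14.5 means of 5.92 and 10.6 lay below the filter. Both were therefore tested because of their E11.5 signal, and their calls are given as a description. Cdh11, also found in mesenchyme, did not separate the groups: it had 495 and 431 at E14.5 and 509 and 465 at E11.5 (-0.07 ± 0.15, adjusted p = 0.78). Cdh22 (0.27 ± 0.16) and Cdh9 (-0.49 ± 0.44) did not pass either. Cdh5, the cadherin of endothelial cells, was below the filter, with 30.1 as its highest array value, at E11.5, as were Cdh8, Cdh18 and Cdh19.

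Among cadherins outside the classical types, Cdh13 rose. This T-cadherin lacks a cytoplasmic tail, is anchored to the membrane by a lipid and also binds adiponectin. It had signals of 489 and 356 at E14.5 and 112 and 142 at E11.5, a log2 difference of 1.63 ± 0.20 (adjusted p = 3.3e-04). Another probe set gave 1.96 ± 0.23, and 1 more gave 0.77 ± 0.30, which did not pass (adjusted p = 0.090). Cdh23, a component of the tip links of hair cells, had signals of 37.3 and 45.4 at E14.5 and 35.4 and 39.8 at E11.5 (0.10 ± 0.31). Cdh16, Cdh17 and Cdh26 were below the filter.

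**Figure D2:**
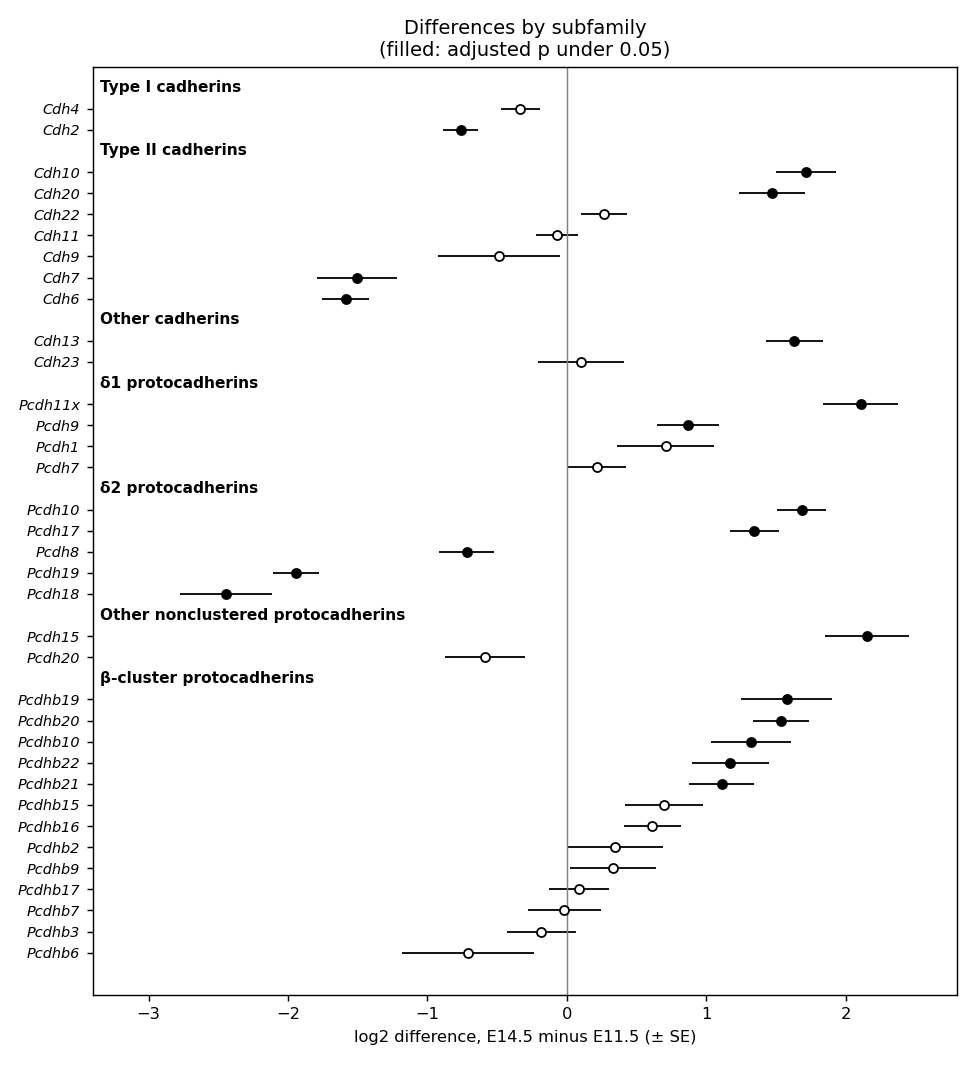
Log2 difference, E14.5 minus E11.5, with its SE for each of the 35 tested cadherins and protocadherins, grouped by subfamily and ordered by size within it. Filled points passed the test. The δ2 protocadherins lie furthest apart, between -2.45 and 1.68, while the 4 δ1 protocadherins all have positive differences (Pcdh7 turns to -0.49 without scaling).

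The δ protocadherins are nonclustered protocadherins with conserved cytoplasmic motifs, divided into δ1 members and δ2 members, whose extracellular part is shorter. All 9 on the array were tested and 7 changed, 4 of them higher and 3 lower, a share of 77.8% beside 27.8% of all genes. All 5 δ2 members changed, in opposite directions. Because the results for these genes diverge within 1 close subfamily, the bases before the start of the 3 δ2 genes whose RefSeq start is also the outer end of the gene are shown here, read 5′ to 3′ on the strand of the gene in GRCm38.p6. Each window holds the 250 bases before the start, and capitals mark CCAAT or, where it lies on the opposite strand, ATTGG.
Pcdh10, chr3:45378148-45378397, + strand: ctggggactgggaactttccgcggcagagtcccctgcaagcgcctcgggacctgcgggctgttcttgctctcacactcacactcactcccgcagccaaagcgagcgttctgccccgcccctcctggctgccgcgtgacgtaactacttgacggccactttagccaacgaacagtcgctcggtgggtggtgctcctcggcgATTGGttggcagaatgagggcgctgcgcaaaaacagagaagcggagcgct
Pcdh17, chr14:84443313-84443562, + strand: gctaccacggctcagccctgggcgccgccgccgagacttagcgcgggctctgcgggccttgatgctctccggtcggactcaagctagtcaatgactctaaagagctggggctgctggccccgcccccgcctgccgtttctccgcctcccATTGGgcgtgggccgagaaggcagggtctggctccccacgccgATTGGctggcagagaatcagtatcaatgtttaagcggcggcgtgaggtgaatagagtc
Pcdh8, chr14:79771313-79771562, - strand: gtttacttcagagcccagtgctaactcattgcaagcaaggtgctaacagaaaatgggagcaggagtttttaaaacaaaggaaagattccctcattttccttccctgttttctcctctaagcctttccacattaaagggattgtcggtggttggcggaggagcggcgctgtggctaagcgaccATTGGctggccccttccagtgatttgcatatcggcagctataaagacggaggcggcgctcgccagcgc
The windows of Pcdh10 and Pcdh17, which rose, held 63.2% and 64.8% G and C, against 51.2% in that of Pcdh8, which fell, and a median of 50% over 19827 such windows of all genes. The window of Pcdh20, a protocadherin that did not pass the test, held 42.4%. The 3 windows shown and that of Pcdh20 all held the CCAAT motif, looked for after the sequences had been seen. On either strand 34.4% of all windows hold it. None held CAGGTG or its complement CACCTG, the E-box read by the Snail and Zeb repressors of cadherin genes, which 17.2% of all windows hold. The windows shown did not differ in whether they held either of these 2 motifs, the only ones looked for.

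Pcdh10, or OL-protocadherin, which links to the actin regulators of the WAVE complex, had signals of 627 and 632 at E14.5 and 160 and 218 at E11.5. Its log2 difference was 1.68 ± 0.18 (adjusted p = 1.1e-04), and its 5 other tested probe sets were all higher, by 1.05 to 2.51. Pcdh17, known in the mouse for its part in sorting axons and synapses of the basal ganglia, had signals of 353 and 362 at E14.5 and 119 and 148 at E11.5. Its log2 difference was 1.34 ± 0.18 (adjusted p = 4.7e-04), with 1.55 ± 0.23 at a second probe set.

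Pcdh19 is an X-linked gene whose mutation causes an epilepsy in humans and whose protein forms a complex with N-cadherin. Among the representative probe sets of the family it had the smallest adjusted p. It had signals of 192 and 156 at E14.5 and 681 and 722 at E11.5, a log2 difference of -1.94 ± 0.16 (adjusted p = 2.7e-05). Its other tested probe sets gave -2.29 ± 0.17 and -1.58 ± 0.26. Pcdh18 had signals of 79.2 and 27.4 at E14.5, of which the first is 2.89 times the second, and 322 and 315 at E11.5. Its log2 difference was -2.45 ± 0.33 (adjusted p = 5.3e-04), against -1.07 ± 0.28 at a second probe set. Pcdh8, or arcadlin, whose protein is known in neurons to draw N-cadherin away from synapses, had 926 and 571 at E14.5 and 1220 and 1194 at E11.5. The Pcdh8 difference of -0.72 ± 0.20 (adjusted p = 0.025) was no longer past the test without E14.5 replicate 2, at -0.38. The call of Pcdh8 was also lost without a filter (adjusted p = 0.081, limma) and without the variance trend (adjusted p = 0.13). Its probe set can also detect related transcripts by its design, and the second Pcdh8 probe set gave -0.90 ± 0.18 (adjusted p = 0.0048).

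The δ1 protocadherins all had positive differences, except that Pcdh7 turned to -0.49 without scaling. Of the 4, 2 passed, beside 27.8% of all genes. Pcdh11x, an X-linked protocadherin, had signals of 303 and 581 at E14.5 and 94.5 and 81.5 at E11.5, a log2 difference of 2.11 ± 0.27 (adjusted p = 3.7e-04). Its E14.5 arrays were far apart, yet both exceeded the E11.5 arrays at least 3-fold, and a second probe set gave 1.92 ± 0.24. Pcdh9 had 187 and 283 at E14.5 and 112 and 129 at E11.5 (0.87 ± 0.22, adjusted p = 0.018). Without E14.5 replicate 2 the difference of Pcdh9 was 0.58 and did not pass. The Pcdh9 call was also lost without a filter (adjusted p = 0.055, limma) and without the variance trend (adjusted p = 0.071). Pcdh1 had 37.3 and 67.9 at E14.5 and 27.2 and 25.1 at E11.5 (0.71 ± 0.35, adjusted p = 0.18), and Pcdh7 had 151 and 131 at E14.5 and 110 and 130 at E11.5 (0.22 ± 0.21, adjusted p = 0.51). Neither passed the test.

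Of the other nonclustered protocadherins 1 rose. Pcdh15, the partner of Cdh23 in hair cell tip links, had signals of 150 and 284 at E14.5 and 32.0 and 41.8 at E11.5. The log2 difference was 2.15 ± 0.30 (adjusted p = 6.3e-04), while a second probe set gave 0.71 ± 0.41 and did not pass (adjusted p = 0.25). With the probe sets of each gene averaged Pcdh15 had 1.43, below Pcdh11x with 2.01 and Pcdh10 with 1.77. At the second Pcdh15 probe set the groups overlapped, with 35.1 and 91.8 at E14.5 and 40.3 and 22.5 at E11.5. The Pcdh15 call therefore depends on the probe set. Pcdh20 had signals of 33.7 and 40.6 at E14.5 and 58.9 and 65.1 at E11.5 (-0.59 ± 0.29, adjusted p = 0.17), and Pcdh12, an endothelial protocadherin, was below the filter.

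**Figure D3:**
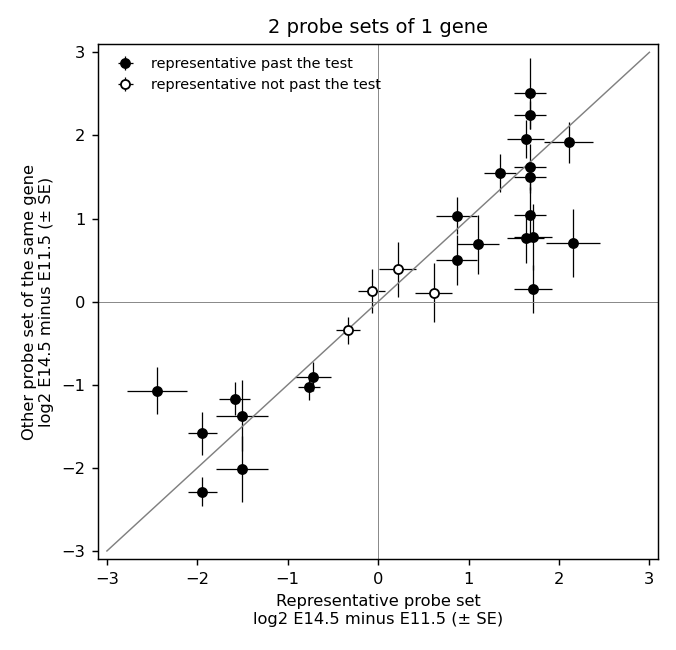
Log2 difference of each of the 27 further tested probe sets of the family (vertical axis) against that of the representative probe set of the same gene (horizontal axis), both E14.5 minus E11.5 with SE, and the line of equality. All 23 points of genes past the test (filled) have the sign of their representative. The genes were chosen by the test on these same arrays.

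Agreement between probe sets of 1 gene was examined over the family. For 14 of the 19 genes past the test, 23 further probe sets were tested. All 23 had the same sign as the representative, 17 passed the test in that direction and none passed in the other. The 17 include the Cdh7 probe sets that were tested because of their E11.5 signal. The genes were chosen by a test on these same arrays, so the agreement adds no independent support for their calls. Of the 4 further probe sets of genes that did not pass, none passed. Over all probe sets tested, 11.1% passed as higher and 12.6% as lower, 23.7% in either direction. These shares cover genes with and without a call, so they are no match for the 23. The share among further probe sets of all called genes was not computed.

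Clustered protocadherins were represented by 22 genes of the β cluster and by Pcdhgc4 of the γ cluster. Each β gene is a single exon with its own promoter, and neighbours are so alike in sequence that their probe sets may detect each other. Of the 22 β genes 13 were tested. Of these 5 rose (38.5%, beside 14.3% of all genes), none fell (beside 13.6%) and 8 did not pass. Without scaling none of the 5 passed, though all kept a positive sign. Pcdhb20 had signals of 216 and 237 at E14.5 and 66.9 and 72.4 at E11.5, a log2 difference of 1.53 ± 0.20 (adjusted p = 4.1e-04). Pcdhb19 had 112 and 105 at E14.5 and 42.5 and 17.1 at E11.5 (1.57 ± 0.33, adjusted p = 0.0063). Pcdhb10 had 77.0 and 90.0 at E14.5 and 26.0 and 25.5 at E11.5 (1.32 ± 0.28, adjusted p = 0.0074). Its E11.5 mean of 25.7 lay below the filter of 27.3, so it was tested because of its E14.5 signal and its call is given as a description. In all 3 the E14.5 arrays were close to each other and above the E11.5 arrays. The genes were chosen by the test on these same arrays, so this separation adds no support. The E11.5 arrays of Pcdhb19 were far apart, at 42.5 and 17.1, and the second value lay below 27.3.

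Pcdhb21 had 119 and 130 at E14.5 and 53.5 and 48.4 at E11.5 (1.11 ± 0.23, adjusted p = 0.0064). Pcdhb22 had 86.0 and 118 at E14.5 and 43.2 and 32.7 at E11.5 (1.17 ± 0.28, adjusted p = 0.012). Without E14.5 replicate 2 the difference of Pcdhb22 was 0.97 and did not pass. The Pcdhb22 call was also lost without a filter (adjusted p = 0.053, limma). Along the chromosome the β genes follow their numbers, and Pcdhb19, Pcdhb20, Pcdhb21 and Pcdhb22 are the last 4, so that 4 of the 5 that rose are adjacent. Of the first 11 genes of the cluster 6 were tested and 1 rose, with a median log2 difference of 0.16, and of the last 11 genes 7 were tested and 4 rose, with a median of 1.11. Over all genes tested 14.3% rose. The counts along the cluster are a description of order, without a test.

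**Figure D4:**
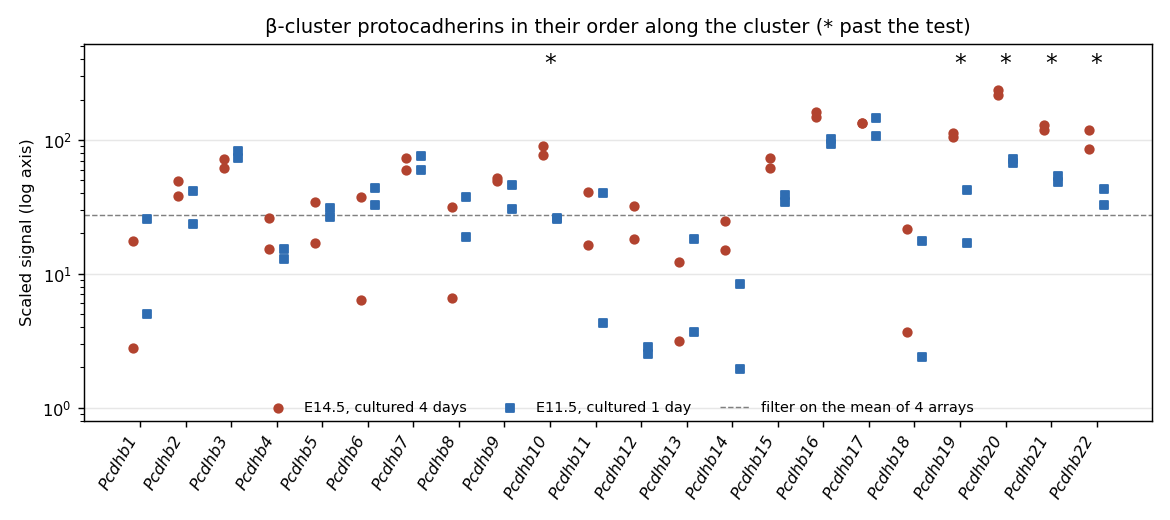
Scaled signal (log axis) of the 22 β-cluster protocadherins on each array, in their order along the cluster, with E14.5 arrays as circles left of E11.5 arrays as squares. The dashed line is the filter on the mean of 4 arrays, at 27.3, and asterisks mark the 5 genes past the test, of which 4 are the last 4 of the cluster.

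The β genes that did not pass ranged from Pcdhb15 (0.70 ± 0.28, adjusted p = 0.10) to Pcdhb6 (-0.71 ± 0.48, adjusted p = 0.33). Pcdhb16 lay next to the threshold, with 149 and 162 at E14.5 and 93.1 and 101 at E11.5 (0.61 ± 0.20, adjusted p = 0.051). Pcdhb17 had 135 and 133 at E14.5 and 107 and 146 at E11.5, so that its groups overlapped (0.09 ± 0.22). Those of Pcdhb7 overlapped too (-0.02 ± 0.26), while Pcdhb3 had a difference of -0.18 ± 0.25, Pcdhb2 one of 0.35 ± 0.34 and Pcdhb9 one of 0.33 ± 0.31. The E14.5 arrays gave 37.4 and 6.32 for Pcdhb6, and without E14.5 replicate 1 it passed as lower (-1.41, adjusted p = 0.026).

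Signals below the filter were found for 21 of the 56 genes, 10 with Cdh symbols, Pcdh12, Pcdhgc4 and 9 β genes. Their array values ran from 1.30 to 41.6, with a median mean signal of 12.7, and no difference was computed for them. The member nearest below the filter was Pcdhb5, with a mean of 27.1, and the nearest above it was Pcdhb6, with a mean of 30.0. In 4 of the 35 tested genes, Pcdhb10, Pcdhb6, Pcdh1 and Cdh9, 1 group had a mean below the filter, so these were tested because of their signal in the other group. Pcdhb12, with 18.1 and 32.0 at E14.5 and 2.83 and 2.51 at E11.5, was among the genes left untested for their low mean.

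Genes that work with cadherins were counted beside the family. Catenins and junction partners had 23 tested genes, of which 3 rose (beside 14.3% of all genes) and 7 fell (30.4%, beside 13.6%), with a median log2 difference of -0.19. The central link from classical cadherins to actin did not pass the test. β-catenin, Ctnnb1, had 5744 and 5913 at E14.5 and 5259 and 4562 at E11.5 (0.25 ± 0.12, adjusted p = 0.17, and -0.10 under quantile normalization and -0.53 without scaling). α-catenin, Ctnna1, had 1889 and 1739 at E14.5 and 1865 and 1796 at E11.5 (-0.01 ± 0.12). The largest falls were those of Nectin3, an adhesion protein that recruits cadherin junctions (-1.44 ± 0.14), Ajuba, a LIM protein of junctions (-1.28 ± 0.19), and Shroom3, which drives apical constriction (-1.23 ± 0.18). They were followed by the p120 relative Arvcf (-0.96 ± 0.18).

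The 3 junction genes that rose, named after their values were seen, were Ctnnd2 (0.73 ± 0.13), Ctnnd1, or p120 (0.63 ± 0.17), and Tjp1, or ZO-1 (0.59 ± 0.13). Without scaling these were -0.04, -0.13 and -0.18, so their direction is relative to the array average. Ctnnd1 did not pass without E14.5 replicate 2 (0.56) or without E11.5 replicate 1 (0.45). Without the variance trend Ctnnd1 (adjusted p = 0.099) and Tjp1 (adjusted p = 0.069) did not pass either. Ctnnd2 and Ctnnd1 bind the membrane-near part of the cadherin tail, and of their p120-family relatives Arvcf, given above, and Pkp4 (-0.83 ± 0.16, adjusted p = 0.0038), also named after its values were seen, fell.

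Genes that process or modify cadherins had 17 tested members, 4 higher and 1 lower, a share of 29.4% beside 27.8% of all genes. Tmtc4, an enzyme of the family that attaches mannose to cadherin repeats, had signals of 145 and 149 at E14.5 and 996 and 1016 at E11.5. The log2 difference of -2.67 ± 0.15 (adjusted p = 2.1e-06) was larger than that of any tested cadherin or protocadherin, while its relatives Tmtc1, Tmtc2 and Tmtc3 did not pass. Adam10, the main protease that sheds N-cadherin, had 1212 and 1157 at E14.5 and 1290 and 1193 at E11.5 (-0.07 ± 0.13). Other proteases of that family rose, Adam9 (1.33 ± 0.14) and Adam15 (0.88 ± 0.17, and 0.48 and not past the test with its probe sets averaged). The γ-secretase subunits Aph1a (0.73 ± 0.14) and Psenen (0.55 ± 0.12, named after its values were seen) rose as well, with -0.03 and -0.23 without scaling. The phosphatase Ptpn1 did not pass (0.07 ± 0.13).

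Of the E-box factors known to repress cadherin genes in epithelia, 4 were tested and all changed, beside 27.8% of all genes. Of these 4 genes 3 were higher and 1 lower. Zeb1 had signals of 3513 and 3937 at E14.5 and 1266 and 1302 at E11.5 (1.52 ± 0.12, adjusted p = 2.1e-05). Tcf4 (1.11 ± 0.13) and Zeb2 (0.68 ± 0.15, but -0.08 without scaling and 0.24 with its probe sets averaged) rose as well. Tcf3 fell (-0.58 ± 0.15, adjusted p = 0.018), a call that was lost without E14.5 replicate 1 (-0.56) and without E11.5 replicate 1 (-0.41). The Tcf3 call was also lost without the variance trend (adjusted p = 0.11, limma). Snai1, Snai2 and Twist1 were below the filter.

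Of 14 tested regulators of the clustered protocadherins, 2 fell and none rose, a share of 14.3% beside 27.8% of all genes in either direction. Ctcf, the DNA-binding protein that loops protocadherin promoters to their enhancers, had 818 and 789 at E14.5 and 1051 and 852 at E11.5 (-0.23 ± 0.14, adjusted p = 0.29). Dnmt3b, the methyltransferase that sets the methylation of these promoters in early mouse embryos, had 43.5 and 61.2 at E14.5 and 145 and 99.7 at E11.5. Its difference of -1.05 ± 0.27 (adjusted p = 0.018) did not pass without E14.5 replicate 1 (-0.85) or without E11.5 replicate 1 (-0.80). The Dnmt3b call was also lost with its probe sets averaged (-0.56) and without a filter (adjusted p = 0.068, limma). Smchd1, a repressor of the clusters, fell by 0.61 on the log2 scale (SE 0.14, adjusted p = 0.011) and did not pass without the variance trend (adjusted p = 0.069). The cohesin subunit Rad21 had a difference of -0.41 ± 0.15 (adjusted p = 0.074) and passed without E14.5 replicate 1 (-0.58) or without E11.5 replicate 2 (-0.49). Rad21 also passed under quantile normalization (-0.48), with probe sets averaged (-0.42), without scaling (-1.18) and with the replicate number as a block (adjusted p = 0.045). Trim28, the corepressor KAP1, had -0.05 ± 0.12 and did not pass, but under quantile normalization it passed as lower (-0.35, adjusted p = 0.017). The count of 2 regulators that fell therefore depends on the fit.

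In the wider cadherin superfamily, 6 of 16 tested genes fell (37.5%, beside 13.6% of all genes) and none rose (beside 14.3%). The falls were led by Celsr3, a seven-pass cadherin of axon guidance, which had 101 and 55.2 at E14.5 and 344 and 468 at E11.5 (-2.24 ± 0.26), and by the synaptic calsyntenin Clstn2 (-2.00 ± 0.23). Celsr2 had -1.04 ± 0.15. Cdhr1, a photoreceptor cadherin, had -1.13 ± 0.29 and did not pass when E11.5 replicate 1 (-1.17) or replicate 2 (-1.08) was left out. The Cdhr1 call was also lost without a filter (adjusted p = 0.070, limma). Its E14.5 mean of 25.8 lay below the filter. Cdhr1, counted among the 6, was therefore tested because of its E11.5 signal, and its call is given as a description. Fat1, a giant cadherin of radial glia, had 2489 and 2838 at E14.5 and 2370 and 2426 at E11.5 and did not pass (0.15 ± 0.12), nor did Clstn1 (0.34 ± 0.14), which passed without E11.5 replicate 1 (0.46).

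**Figure D5:**
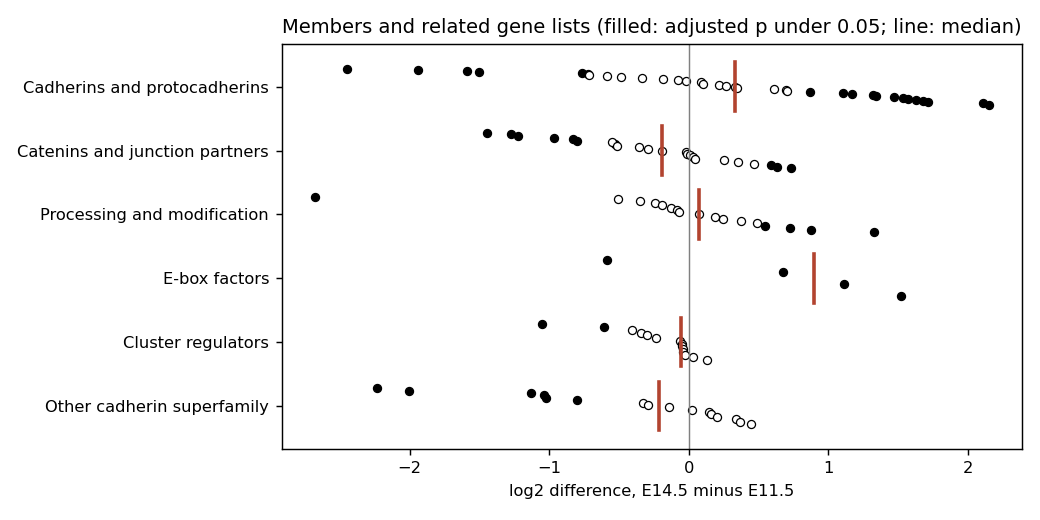
Log2 difference, E14.5 minus E11.5, of each tested gene (points, filled where past the test) in the family and in 5 lists of related genes, with the median of each as a line. The medians are 0.33 for the family, -0.19 for junction partners, 0.07 for processing genes, 0.89 for E-box factors, -0.06 for cluster regulators and -0.21 for the wider superfamily.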

How the data were processed

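Biotin-labelled cRNA from 5 µg of total RNA was hybridised to 1 Affymetrix array per sample. The authors deposited a single linear-scale intensity for every probe set on each array. GCOS is named by the submitters' processing notes, without settings. Of 45101 probe sets 64 controls were set aside. Of the other 45037, 34945 name 1 gene, 932 several and 9160 none, and 204 of the single-gene probe sets had no match in the RefSeq gene table (GRCm38.p6) and kept the platform's symbol. Each array was multiplied by a factor that brought its 2% trimmed mean to 174. Probe sets at or above the 40th percentile of mean signal were kept. The constant added before log2 was the 25th percentile of all values. The test was limma 3.58.1 (R 4.3.3) (eBayes with a variance trend, 2 residual and 7.99 prior degrees of freedom), with Benjamini-Hochberg adjustment over 27022 probe sets. The fit was tested on simulated data.

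The rule named all members past the test, the 12 brightest others tested, and from each related list up to 4 genes past the test by size and up to 2 that were not by signal, with Ctnnb1, Ctcf and Dnmt3b. Pcdh1, Pcdhb2, Cdh9 and Pcdhb6 were added so that every tested member is named. Other related genes are marked as named after their values were seen or given as not past the test. Family and lists were chosen with earlier results of these data known. The number of arrays limits the precision. Promoter sequences are RefSeq's, and of the 35 tested members 4 had a window at the outer start of the gene. Alternatives were no scaling, quantile normalization, 2 other constants, no filter, no trend, averaged probe sets, each array left out, and a replicate block.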

Additional observations from a re-analysis of the deposited data

How the results depend on the processing

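All 19 calls in the family were kept with the constant at an eighth or at the median of all values, under quantile normalization, with probe sets averaged, and without either E11.5 array or E14.5 replicate 1. Without E14.5 replicate 2, 16 of the 19 were kept, without a filter 16 and without the variance trend 17. The calls lost without a filter were those of Pcdh8, Pcdh9 and Pcdhb22, and those lost without the variance trend were those of Pcdh8 and Pcdh9. No call in the family changed sign. Leaving out 1 array gave 11 to 13 higher and 5 to 7 lower members, and 1406 to 1903 higher and 1423 to 1708 lower genes. Without scaling 2 members and 250 genes were higher, and 10.1% of all calls were higher against 51.3% with scaling (deposited trimmed means range 2.43-fold). Without the trend 1150 genes were higher and 1101 lower. With a replicate block 14 members were higher and 6 lower, the added one being Pcdhb16 (0.61, adjusted p = 0.0499); same-numbered arrays deviated together with r = 0.0041 across probe sets, and nothing in the labels pairs them. Pcdhb16 also passed under quantile normalization (0.67).

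Signs of differences that had not passed turned in these cases, and the cause was not tested. Without scaling they were Pcdhb16 (-0.093), Pcdhb17 (-0.62), Pcdhb2 (-0.25), Pcdhb9 (-0.28), Pcdh7 (-0.49), Cdh23 (-0.49), Cdh22 (-0.48), Ctnnb1 (-0.53), Ptpn1 (-0.70), Fat1 (-0.63) and Clstn1 (-0.43). Called genes that turned without scaling were Aph1a (-0.030), Zeb2 (-0.076), Ctnnd2 (-0.035), Ctnnd1 (-0.13), Tjp1 (-0.18) and Psenen (-0.23). Under quantile normalization Pcdhb7 (0.0033) and Ctnnb1 (-0.10) turned, and with probe sets averaged Cdh11 (0.027). Over the fits without 1 array the differences spanned 0, from -0.12 to 0.29 for Pcdhb17, -0.17 to 0.13 for Pcdhb7, -0.0059 to 0.21 for Cdh23, -0.17 to 0.023 for Cdh11, -1.10 to 0.13 for Cdh9, -0.074 to 0.045 for Ctnna1, -0.045 to 0.19 for Ptpn1 and -0.14 to 0.048 for Trim28.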

Other observations

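The α cluster of protocadherins was measured by 6 probe sets that name 9 to 14 of its genes at once and so belong to none of them. The α genes share their last exons, so that such a probe set can detect several of their transcripts together. Of these probe sets 4 were past the filter and none passed the test, beside 23.7% of all probe sets in either direction. The brightest had signals of 387 and 419 at E14.5 and 346 and 476 at E11.5 (-0.01 ± 0.18, adjusted p = 0.97). The next had 206 and 258 at E14.5 and 242 and 315 at E11.5 (-0.25 ± 0.19, adjusted p = 0.41), and the third 51.6 and 55.4 at E14.5 and 53.3 and 54.4 at E11.5. In all 4 the groups overlapped. Whether the α and β clusters differ in their change was not tested.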
